A study of Mus musculus with 8 samples.

Results

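T cell receptor variable (V) gene segments are described here in RNA of tumour-infiltrating CD8+ T cells of the mouse. They are the genes that the authors' table gives the biotype TR_V_gene, 72 of 19673 genes: 51 segments of the alpha chain (Trav), 20 of the beta chain (Trbv) and 1 of the gamma chain (Trgv6). Py8119 cells, a mouse mammary tumour line, were injected into mice whose genotype at Mtdh was wild type (WT) or knockout (KO). Live CD45+CD3e+CD8+ cells were sorted from the tumours, and 4 biological replicates of each host genotype were profiled by bulk RNA sequencing. The genotype compared is that of the host. How the KO allele was made, which host cells carry it, the strain, age and sex of the mice and the time of harvest are not given in the sources used here. Libraries are called KO 1 to KO 4 and WT 1 to WT 4, and values given in a row are in that order.

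Each T cell joins 1 V segment to a joining segment, and in the beta chain to a diversity segment in between, before the joined exon is spliced to a constant region. The V segment encodes the leader, most of the variable domain and the first residues of CDR3, the loop that meets the peptide. A mature cell usually carries 1 productive beta chain and 1 or more alpha chains, so a polyclonal population spreads its receptor RNA over many V segments and a dominant clone raises the segments it uses. In bulk RNA a higher level of a segment can come from more cells that use it or from more receptor RNA per cell, and these cannot be told apart.

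The parts of the segments that enter CDR3 are shown for the 5 beta segments with the highest mean usage, since these carry most of the beta results. Each line gives the last 30 coding bases before the last in-frame cysteine codon, that codon in capitals, and the rest of the annotated coding sequence, 5′ to 3′ in the sense of the gene, from the GENCODE M21 transcripts (GRCm38).
Trbv14: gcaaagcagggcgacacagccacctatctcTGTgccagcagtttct
Trbv19: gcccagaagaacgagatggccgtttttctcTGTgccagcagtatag
Trbv5: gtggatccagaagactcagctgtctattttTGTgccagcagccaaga
Trbv17: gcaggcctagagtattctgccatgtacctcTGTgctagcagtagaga
Trbv13-2: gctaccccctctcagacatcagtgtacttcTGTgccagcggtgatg
Of the 20 beta segments, 19 had such a cysteine codon, which was TGT in 17 and TGC in 2, with 8 to 18 coding bases after it. The other, Trbv4, had no reading frame free of stop codons in the annotated coding sequence, so the codon was not looked for. The 8 bases gccagcag stood directly after the codon in 9 beta segments and in 0 of the 51 alpha segments. All 5 segments shown have the TGT codon, and they differ from one another on both sides of it.

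Values are normalized read levels as the authors deposited them, without division by gene length. Usage is the share of a chain's summed level that a segment holds in a library after each level was divided by the segment's exonic length. The libraries held an estimated 16400000 to 29600000 reads over all genes. Small RNA classes held 28.5% to 36.3% of the level. The reads outside these classes came from an estimated 123000 to 585000 distinct cDNA fragments, so a single fragment was worth 25.5 to 139 units of level. Mtdh itself was lower in the KO libraries (5118, 4622, 2538 and 3341) than in the WT libraries (9324, 12745, 6407 and 7974), by a log2 fold change of -1.23 (adjusted p = 0.0400 by limma, SE 0.25), the direction that the labels give. Of the markers of the sorted cell type, Cd8a and Cd3e were detected in all 8 libraries, at 1565 to 13355 and 909 to 6339. Other genes among the 14 listed were near the floor in some libraries. Cd3d was 3.30 in KO 2 and 1.89 in WT 2, and Zap70 was 2.71 in KO 1 and 2.84 in WT 2. Cd5 was 4.52 in KO 1, and Cd2 and Cd247 were 2.84 and 7.15 in WT 2. Macrophage markers were also high, with a sum over 6 genes of 88678 to 209564 in KO and 150576 to 244686 in WT. WT 2 stood apart with the lowest summed T cell markers, and its beta segments summed to the worth of 1.51 fragments. A fragment's worth is an average over genes, and single fragments can give fewer reads, so a sum in fragments is an estimate and not a count of molecules: in WT 2, 3 beta segments had at least 3 reads.

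Beta segments summed to a level of 515, 832, 1452 and 1228 in KO and 590, 95.6, 608 and 971 in WT. In fragments these sums were 6.94, 5.97, 33.7 and 32.6 in KO and 9.62, 1.51, 23.9 and 29.4 in WT. The genotypes overlapped on both scales, and the libraries KO 1, KO 2, WT 1 and WT 2 rested on an estimated worth of fewer than 10 fragments each. On the log2 scale the mean sum was 9.87 ± 0.66 in KO and 8.74 ± 1.48 in WT (SD, n = 4), a difference of 1.13. It was 0.41 without WT 2 and 0.54 relative to the constant-region genes Trbc1 and Trbc2, so a single library set most of its size. The sums came to 36.5%, 106%, 52.0% and 74.9% of the level of Trbc1 and Trbc2 in KO and to 58.6%, 26.5%, 48.2% and 44.7% in WT.

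Trbv14 was the beta segment with the highest level and the highest usage. It lies on chromosome 6, from 41112079 to 41112550 on the plus strand (mm39), within the Trb locus. Its level was 276, 215, 245 and 467 in KO and 121, 35.0, 77.5 and 148 in WT. Every KO library was above every WT library. The means were 301 ± 114 in KO and 95.4 ± 49.7 in WT (SD, n = 4), a ratio of 3.15. On the log2 level, exact permutation (two-sided) gave p = 0.0286, the smallest that 70 arrangements of 4 against 4 libraries allow. The test was run on the 2 segments of highest mean usage, and its Benjamini-Hochberg value over both was 0.0571. The limma fit across all genes gave 1.77 for the log2 fold change (SE 0.80) and an adjusted p of 0.730, which did not pass. With any 1 library left out the exact permutation p was 0.0571, the smallest that 4 against 3 allows. Since the groups were fully separated, that value was fixed in advance and does not show how far the difference depends on a library.

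The separation of the genotypes in Trbv14 did not carry over to its ratios to Trbc1 and Trbc2 or to Cd3e, neither of which was planned. Other T cell genes were not used as denominators. Among these was Trac, whose fitted log2 fold change was 0.0068 (SE 0.33). Relative to Trbc1 and Trbc2, Trbv14 stood at 19.5%, 27.4%, 8.80% and 28.5% in KO and 12.01%, 9.71%, 6.14% and 6.83% in WT. The groups overlapped through KO 3, and the exact permutation p was 0.0857 (log2 difference 1.19). Relative to Cd3e, a subunit of the CD3 complex that carries the receptor's signal, it stood at 10.7%, 5.36%, 3.87% and 9.29% in KO and 6.61%, 3.85%, 4.02% and 5.39% in WT. Here the log2 difference was 0.47 and the exact permutation p was 0.286. Cd3e itself had a fitted difference of 1.31 on the log2 scale (adjusted p = 0.116 by limma, SE 0.31). In fragments, Trbv14 stood at 3.71, 1.54, 5.70 and 12.4 in KO and 1.97, 0.55, 3.04 and 4.49 in WT, so by this estimate most of these levels rest on few molecules.

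**Figure D1:**
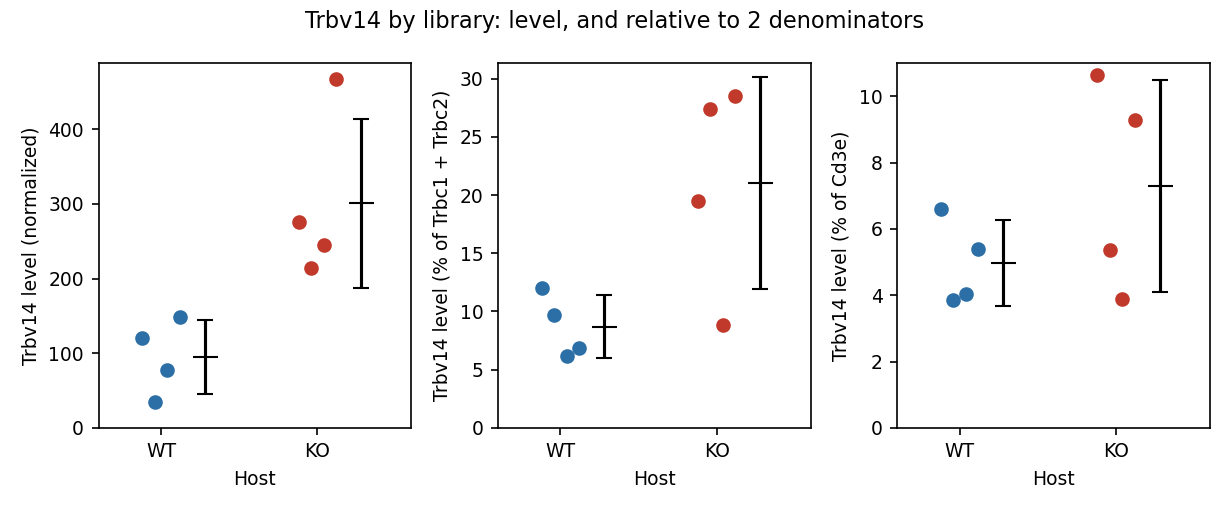
Trbv14 in each library: the normalized level, and the level as a percent of Trbc1 and Trbc2 and as a percent of Cd3e. Points are libraries of KO and WT hosts, and bars are the mean ± SD of 4 libraries. The KO points (215 to 467) lie above the WT points (35.0 to 148) for the level, and the groups overlap in the other panels.

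Within the beta chain Trbv14 held 59.2%, 29.8%, 17.1% and 40.1% of usage in KO and 21.6%, 36.8%, 13.9% and 17.6% in WT. The groups overlapped, with WT 2 above KO 2 and KO 3. It was the leading beta segment in 4 of 4 KO libraries. In WT the leaders were Trbv13-2 in WT 1 (24.4%), Trbv5 in WT 2 (58.7%, on 1.51 fragments for the chain) and Trbv19 in WT 3 (16.1%) and WT 4 (23.7%). Trbv14 was also the only beta segment with at least 3 reads in all 8 libraries.

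Trbv19, from 41155309 to 41155982 of the same chromosome, was second in mean usage (12.2% over the 8 libraries, against 29.5% for Trbv14). Its level was 126, 251, 20.8 and 132 in KO and 76.3, 0.946, 139 and 307 in WT. The highest value was in WT 4 and the lowest in WT 2, and the groups overlapped throughout. The means were 132 ± 94.1 in KO and 131 ± 130 in WT (SD, n = 4; exact permutation p = 0.714, Benjamini-Hochberg value over both tests 0.714). Its log2 fold change of 0.96 (SE 1.54) turned to -0.61 without WT 2.

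The other leading beta segments were carried by different libraries. Trbv5 had a mean usage of 10.6% that came mostly from WT 2. Its level was 0, 0, 100.01 and 2.37 in KO and 58.6, 55.8, 38.3 and 12.6 in WT, so it was seen in every WT library and in 2 of 4 KO libraries. The log2 fold change was -3.09 (adjusted p = 0.773 by limma, SE 2.09), which did not pass. Trbv17 (mean usage 6.92%) was 0 in KO 1, KO 2 and WT 2, reached 230 and 161 in KO 3 and KO 4 and stayed between 51.0 and 62.3 in the other WT libraries. Trbv13-2 (6.39%) was 0 in the same 3 libraries, with 173 and 43.4 in KO 3 and KO 4 and 127, 25.5 and 36.3 in WT 1, WT 3 and WT 4. Both were thus undetected exactly where the fewest beta fragments were read in KO and in WT.

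Trbv12-1 had a mean usage of 5.85% and was present in all 8 libraries, although below 4 units in KO 2, WT 1 and WT 2. Its level was 100.3, 3.30, 118 and 70.3 in KO and 1.86, 3.78, 15.5 and 51.2 in WT (log2 fold change 2.07, SE 1.98, adjusted p = 0.834 by limma). Trbv26 (4.46%) was 0, 135, 101 and 27.6 in KO and 0, 0, 23.7 and 26.02 in WT (log2 fold change 2.31, SE 2.21). For both, 3 of 4 KO libraries lay above the WT median, and the SE was close to the size of the difference. Trbv1 (5.46%) was seen in KO 2 (204), KO 3 (123), WT 3 (50.1) and WT 4 (30.8) and was 0 elsewhere. Trbv20 (4.36%) ranged from 0 to 113, highest in KO 3.

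Trbv16 and Trbv15 leaned towards WT, each through WT 3 and WT 4. Trbv16 (3.31%) was 0, 0, 0 and 43.4 in KO and 0, 0, 12.8 and 190.0 in WT, a log2 fold change of -1.47 (SE 2.10). Trbv15 was 0 in 3 KO libraries and 44.2 in KO 3, and 0, 0, 82.9 and 36.3 in WT (log2 fold change -1.53, SE 2.08). Without WT 3 the value for Trbv15 was -0.37 and without KO 3 it was -2.90, and without KO 4 that for Trbv16 was -2.84. Without WT 4, where its level was highest, Trbv16 fell under the mean of 10 needed for the fit, so no value is given. The 20 segments lie from 40868163 to 41535386, and mean usage showed no relation to their order along the locus (Pearson r = -0.0062, Spearman rho = -0.024 over 20 segments, a description, since all share the same 8 libraries). The mean level also had little relation to exonic length, which runs from 335 to 566 bases (r = 0.16, rho = 0.16 over 20 segments).

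**Figure D2:**
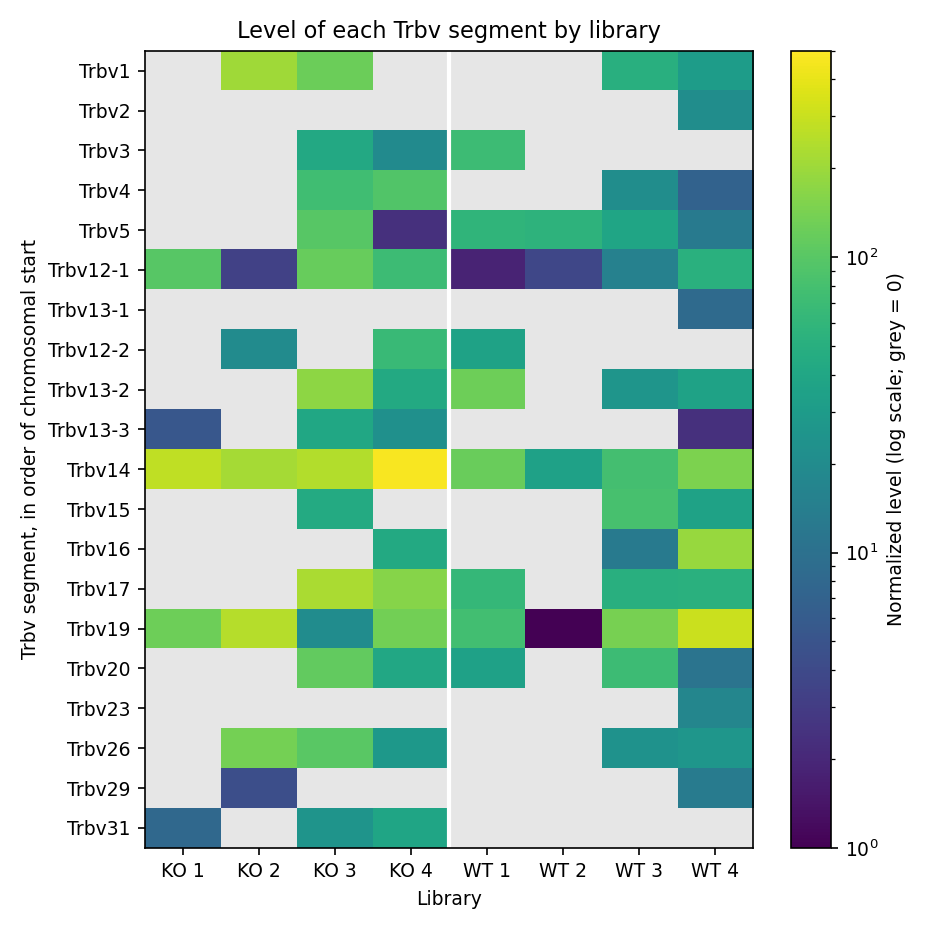
Normalized level of each of the 20 Trbv segments (rows, in order of chromosomal start) in the 8 libraries (columns). Colour gives the level on the scale shown. The Trbv14 row is filled in every column, and the WT 2 column is empty apart from Trbv5, Trbv14 and traces of Trbv12-1 and Trbv19.

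The number of beta segments seen followed the fragments read. Segments with at least 3 reads numbered 5, 7, 14 and 14 in KO and 8, 3, 12 and 17 in WT, a mean of 10 in each group. Of 160 segment and library values, 80 were under 3 reads (78 of these exactly 0), and 46 reached the worth of 1 fragment. Detection in at least 3 reads was split over the genotypes for most segments: 16 were seen in both, 1 only in KO (Trbv31) and 3 only in WT (Trbv2, Trbv13-1 and Trbv23, each in WT 4 alone). A 0 in libraries with this few fragments does not show that a segment was unused.

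The effective number of beta segments, the exponential of the Shannon index of usage, was 2.88, 4.53, 11.0 and 7.86 in KO and 7.23, 2.31, 10.03 and 9.52 in WT. The means were 6.57 ± 3.61 and 7.27 ± 3.52 (SD, n = 4), and their difference was smaller than the spread within either group. Libraries with over 20 fragments had effective numbers of 7.86 to 11.0 in both genotypes. Whether usage differed in evenness apart from the fragments read was not tested.

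**Figure D3:**
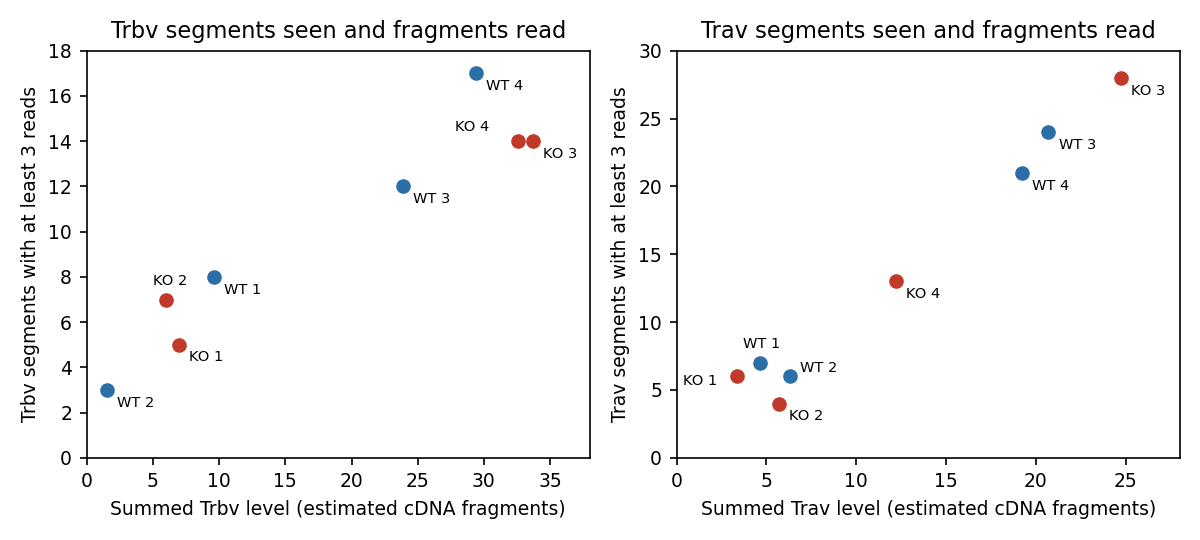
Number of Trbv (left) and Trav (right) segments with at least 3 reads in each library against the chain's summed level in estimated cDNA fragments. Each point is 1 library, coloured by host genotype. In both panels the libraries with more fragments show more segments, up to 17 Trbv and 28 Trav, and KO and WT points intermingle.

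Usage shared between libraries covered similar ranges within and between genotypes. For a pair of libraries, shared usage is the sum over segments of the lower share. In the beta chain it ran from 28.7% to 57.8% (median 45.2%) over the 6 pairs of KO libraries, from 23.6% to 59.8% (median 36.7%) over the 6 pairs of WT libraries, and from 28.5% to 65.3% (median 42.0%) over the 16 pairs of a KO and a WT library. For the alpha chain, by family, the medians were 39.7%, 28.9% and 38.1%, and the lowest pair, a KO with a WT library, shared 1.18%. The pairs share libraries, so these are descriptions.

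Alpha segments were read less deeply still in every library but WT 2, where the beta segments summed to 1.51 fragments. They summed to 251, 792, 1065 and 460 in KO and 284, 399, 527 and 634 in WT, which is 3.39, 5.68, 24.7 and 12.2 fragments in KO and 4.63, 6.29, 20.7 and 19.2 in WT. The mean log2 sum was 9.13 ± 0.92 in KO and 8.78 ± 0.51 in WT (SD, n = 4), a difference of 0.34 that is smaller than the spread between libraries. Relative to the constant-region gene Trac, the sums were 24.4%, 60.8%, 39.0% and 28.2% in KO and 15.4%, 45.9%, 30.2% and 30.3% in WT. Of 408 values, 299 were under 3 reads and 35 reached 1 fragment, against 46 of 160 in the beta chain. No alpha segment reached 3 reads in more than 6 libraries, a number that Trav12-2 alone reached. Of the 51, 18 did so in 1 library and 22 in 2.

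The mouse Tra locus holds large duplicated blocks, whose copies carry the letters d and n in segment names, and the copies can be identical in sequence. The ends of the Trav9 and Trav16 segments show how far reads can tell them apart, printed as for the beta segments.
Trav9d-3: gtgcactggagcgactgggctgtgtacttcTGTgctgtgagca
Trav9n-3: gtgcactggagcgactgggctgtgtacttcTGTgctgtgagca
Trav16n: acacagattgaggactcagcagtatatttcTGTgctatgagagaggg
Trav16d-dv11: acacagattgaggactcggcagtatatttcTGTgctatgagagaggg
Trav9d-3 and Trav9n-3 had the same coding sequence throughout and the same level in every library (0, 0, 11.7 and 18.2 in KO and 35.8, 0, 19.6 and 5.52 in WT). Among the 132 pairs of alpha segments within a family, 8 pairs had equal values, within 0.01%, in all 8 libraries, and 6 of these had identical coding sequences. The other 2 equal pairs, Trav10 with Trav10d and Trav7-3 with Trav7d-3, differed at 3 and 2 coding bases. Another 2 pairs with identical coding sequences, Trav12d-3 with Trav12n-3 and Trav7d-6 with Trav7n-6, had unequal values. How the authors' counting treated reads shared by copies is not given in the sources used here, so the level of a single d or n segment is uncertain. None of the 4 within-family pairs of beta segments, at 85.3% to 90.6% identity, had equal values. Alpha results are therefore given by family, the number after Trav.

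Shares of the copies were taken of the summed alpha level, without division by length. Copies of the d block held 18.8% to 52.4% of that level in the 8 libraries. Copies of the n block held 13.5% to 68.4% and segments with neither letter 12.3% to 52.8%. These ranges are wide and cover 17, 11 and 23 segments. KO 2 had the highest share of the n block and WT 4 the highest of the d block.

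Trav12 was the alpha family with the highest mean usage, 25.9%. Its level was 70.5, 399, 184 and 86.8 in KO and 135, 1.89, 76.6 and 183 in WT. The family was present in every library, only in traces in WT 2, and the groups overlapped. It led in WT 1 (50.2% of usage) and WT 4 (28.6%). Trav16, second at 16.7%, was 84.0, 389, 75.3 and 45.0 in KO and 0, 0, 82.9 and 92.2 in WT. It was thus seen in 4 of 4 KO and 2 of 4 WT libraries, and it led in KO 1 (34.8%) and KO 2 (50.9%). Summed over the family, its log2 fold change was 3.46 (SE 1.99) with a limma adjusted p of 0.770.

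The segments of the Trav16 family held its level unevenly. Trav16n, on chromosome 14 from 53588485 to 53589078 on the plus strand (mm39), was 42.0, 389, 52.8 and 22.5 in KO and 0, 0, 82.9 and 1.4e-08 in WT. Its log2 fold change was 4.49 (SE 2.13) with an unadjusted p of 0.0479 and a limma adjusted p of 0.742. The size depends on the pseudocount, being 2.85 with 5 and 1.48 with 25, and without KO 2 the unadjusted p was 0.112. Trav16d-dv11 took the family's whole level in WT 4 (92.2) and equal parts with Trav16n in KO 1 and KO 4, and its log2 fold change was 0.86 (SE 2.07), although its mean level was lower in KO (16.1 ± 20.3) than in WT (23.1 ± 46.1; SD, n = 4). The coding sequences of these segments are 96.6% identical. The near-0 value of Trav16n in WT 4 is part of its fold change, and the family's sum there is not low.

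Trav3 (mean usage 11.1%) led in KO 3 (24.4%) and KO 4 (40.1%). Its level was 0, 1.10, 275 and 189 in KO and 0, 0.946, 21.9 and 132 in WT, and its segment Trav3-1 (0, 1.10, 129 and 136 in KO and 34.7 in WT 4 only) had a log2 fold change of 2.51 (SE 2.18). Trav14 (12.4%) led in WT 2 (48.3%) and WT 3 (19.3%). Its level was 17.2, 2.20, 114 and 21.3 in KO and 0.930, 204, 104 and 63.9 in WT. Its segment Trav14d-3-dv8, one of the segments that can also join to the delta chain, was 15.4 in KO 1, 100.3 in WT 2, 25.5 in WT 3 and 28.4 in WT 4 and 0 in the others (log2 fold change -3.06, SE 2.02, limma adjusted p = 0.772). No family led in more than 2 libraries, where in the beta chain Trbv14 led in 4.

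Of the remaining leading families, Trav7 (12.6%) had a level above 0 in all 8, from 1.10 in KO 2 to 90.8 in WT 2. Trav5 (5.04%) was seen only in KO 3 (98.7) and WT 2 (100.3), and Trav17 (3.52%) in WT 1 (66.0) with a trace of 0.911 in WT 3. Trav6 (4.43%) was 0 in KO 1, KO 2, WT 1 and WT 2, and between 23.7 and 89.6 in the other 4 libraries. Trav9 (4.23%) reached 73.3 in WT 1, and Trav13 (2.87%) reached 79.2 in KO 3 and 63.8 in WT 3. Trav12d-3 and Trav9d-3, next among segments leaning towards WT, had log2 fold changes of -1.59 (SE 2.10) and -1.09 (SE 1.99). With 1 library left out these ran from -3.12 (without KO 3) to -0.68 (without WT 4) and from -2.11 (without WT 2) to -0.43 (without KO 1). Without WT 1, Trav9d-3 fell under the mean of 10 needed for the fit, so its range leaves that case out.

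**Figure D4:**
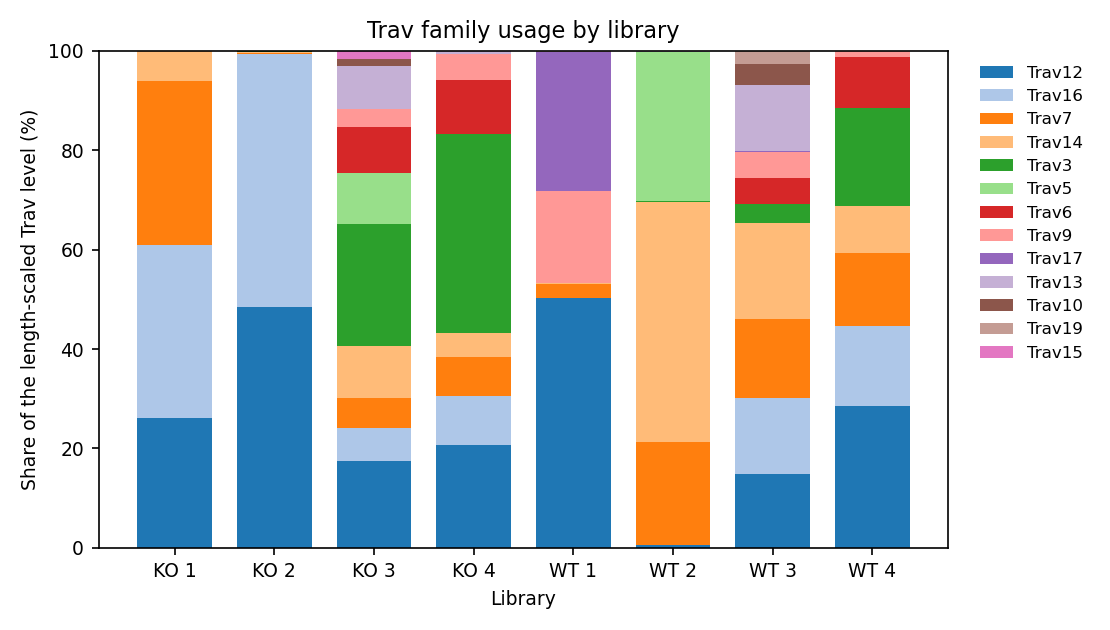
Usage of Trav families in each library, as the share of the length-scaled Trav level. Each bar is 1 library and sums to 100%, and colours are families. The leading family is Trav16 in KO 1 and KO 2, Trav3 in KO 3 and KO 4, Trav12 in WT 1 and WT 4 and Trav14 in WT 2 and WT 3.

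The effective number of alpha families was 3.50, 2.08, 8.59 and 5.45 in KO and 3.16, 2.999, 8.37 and 5.83 in WT. The means were 4.90 ± 2.82 and 5.09 ± 2.54 (SD, n = 4) and differed by less than the spread within a group. As in the beta chain, the lowest numbers belonged to the libraries with the fewest fragments: KO 1, KO 2, WT 1 and WT 2 had 3.39 to 6.29 alpha fragments and 2.08 to 3.50 effective families.

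Trgv6, the gamma-chain segment on chromosome 13 from 19374526 to 19375099 (mm39), had a level of 108 in KO 1, the worth of 1.45 fragments, and 0 in the other 7 libraries. The list of gamma-delta T cell genes held the gamma constant regions under both Tcrg-C and Trgc symbols, and only the Trgc symbols were found. Of its 9 names, 6 were found, with a summed level of 389 to 1364 in KO and 79.5 to 477 in WT. Trgc2 was the largest part of this sum in every library. In limma 5 were tested and 0 passed. Log2 fold changes were positive for 3 of the 5 and negative for Trgc4 (-1.26, SE 2.03) and Sox13 (-0.81, SE 1.91). Trgc2 was 237, 749, 1146 and 1107 in KO and 75.3, 78.5, 92.1 and 475 in WT (log2 fold change 2.43, SE 0.67, limma adjusted p = 0.244), so KO 1 lay below WT 4 and the groups overlapped. Trdc, the delta constant region, was 109 in KO 1 and 2.20, 0 and 71.8 in KO 2 to KO 4, and 2.79, 0.946, 74.7 and 1.58 in WT. Alpha-beta T cells often carry rearranged gamma genes as well, so Trgc2 RNA alone does not name the cell that made it.

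Tested across all genes, no V segment differed between the genotypes at an adjusted p under 0.05. Of the 72 segments, 30 had a mean level of at least 10 and were tested: 15 alpha, 14 beta and Trgv6. Past the threshold were 0 of 30 in limma, against 0.236% of the 16120 genes tested; by direction, 0 were higher in KO, against 0.211% of all genes, and 0 were lower, against 0.0248%. At an unadjusted p under 0.05 there were 2 of 30, Trbv14 and Trav16n, both higher in KO, against 6.70% of all genes. All 4 KO values lay above all 4 WT values in 1 of 30, Trbv14, against 2.02% of all genes. The fitted log2 fold change was positive for 18 of the 30 and negative for 12, with a median of 0.52 beside a median of -0.12 over all genes tested. That lean rested on single libraries: without KO 3 it was 13 positive and 19 negative with a median of -0.84, and without WT 1 or without WT 2 the median was 0.10. For 6 of the 30 the group means ran opposite to the fitted value, which is taken on the log2 scale and weighs zeros heavily. The smallest adjusted p of a segment was 0.730. The standard errors, 0.80 for Trbv14 and 1.54 to 2.36 for the others, show how wide a difference these libraries leave undetected.

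**Figure D5:**
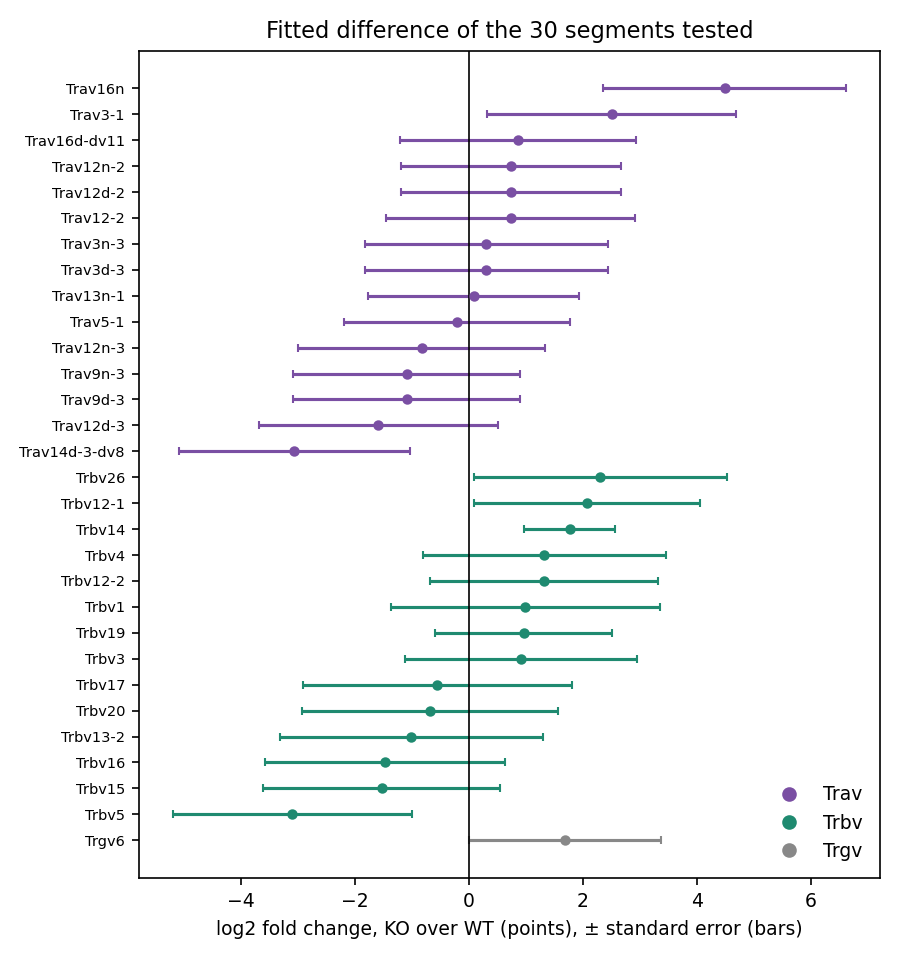
Fitted log2 fold change, KO over WT, of the 30 V segments with a mean level of at least 10. Points are estimates and bars are ± 1 SE from limma on log2(level + 1). Trbv14 has the shortest bar, and no segment passed an adjusted p of 0.05.

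The T cell markers were read beside the segments, and their part in the Trbv14 difference was not tested beyond the ratios given above. Of 14 T cell genes of the CD8 lineage, 13 had positive log2 fold changes (median 0.72) and 0 passed the threshold in limma, and their summed level was 21181 to 46849 in KO and 7950 to 27312 in WT, which overlap. Of the 6 macrophage genes, 0 had a positive value (median -0.46) and 0 passed. The constant-region genes had log2 fold changes of 0.0068 (Trac, SE 0.33), 0.25 (Trbc2, SE 0.43) and 1.46 (Trbc1, SE 0.81).

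Markers of other lymphocytes differed in level. Cd4, of helper T cells, ranged from 0 in WT 2 to 169 in WT 1, and Foxp3, of regulatory T cells, was 0 in 6 of 8 libraries. Klrb1c, found on natural killer cells and invariant T cells, was 1.19 to 497. Of the B cell genes, Ighm, the heavy chain of IgM, was present in all 8 libraries at 277 to 1503 (log2 fold change 0.15, SE 0.44). Igkc, the immunoglobulin kappa constant region made by B cells, was 297 to 586 in KO and 56.5 to 114 in WT (log2 fold change 2.55, limma adjusted p = 0.236). The 18 immunoglobulin V genes summed to 30.1 to 419 in a library, where the 72 T cell receptor V segments summed to 495 to 2517, and they were at 0 in 81.3% of values, against 60.8% for the T cell receptor V segments.

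Genes that recombine the segments and assemble the receptor were followed as a list. Of 21 genes, 18 were found and tested and 0 passed the threshold in limma, with 10 positive log2 fold changes and a median of 0.086. Rag1, Rag2 and Ptcra were on the list but not among those found. The list also holds CD3 and constant-region genes. Dntt, which adds bases at the joints, was 352, 114, 29.9 and 94.7 in KO and 116, 175, 40.1 and 89.1 in WT. Of 7 end-joining genes, 2 had positive log2 differences (Nhej1 0.90 and Prkdc 0.20) and 5 negative ones (Xrcc4 -3.02, Lig4 -2.87, Xrcc5 -2.61, Xrcc6 -1.82 and Dclre1c -0.45), and none passed the test. Xrcc4, Lig4, Xrcc5 and Xrcc6 (SE 1.51 to 1.97) were 0 in KO 2, where a single fragment was worth 139 units. Nhej1 was 0 there and in WT 2. Zeros weigh heavily on the log2 scale. The mean levels in KO and WT were 38.2 and 100 for Xrcc4 and 116 and 157 for Lig4. They were 88.3 and 181 for Xrcc5 and 82.6 and 121 for Xrcc6. Of the CD3 complex, Cd247, the zeta chain, had 1.77 (SE 1.01), Cd3e 1.31 (SE 0.31), Cd3g 0.70 (SE 0.54) and Cd3d -0.64 (SE 1.72), and none passed. Other V-related biotypes were sparse: the pseudogene Trbv24 was 32.8 in WT 3 and 0 elsewhere.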

How the data were processed

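Per the labels' protocols, RNA of sorted cells was depleted of ribosomal RNA and made into libraries with PrepX chemistry; Partek, STAR 2.7.8a, DESeq2 and the build mm39 are named, per the submitters' processing notes, with no role stated. The authors deposited 1 normalized signal for each gene in each library, which the table's name calls DESeq2-normalized. These fell on multiples of 1 read for 81.7% to 88.1% of values of up to 500 reads (within 0.02 reads), too few for whole reads to be recovered, so count models were left out. Fragments were estimated from the genes outside the small RNA classes, with a mean of 20 to 500, that a library left under 3 reads. Strand was not stated, so overlapping genes cannot be told apart.

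Those genes whose mean reached 10 were fitted as log2(value + 1) with limma 3.58.1 in R 4.3.3 (intensity trend, two-sided, Benjamini-Hochberg over all genes, threshold 0.05). The fit was tried on simulated data with changes placed only in genes of higher mean level than any V segment. That trial does not show how well changes in the segments are recovered. Fold changes are on the log2(value + 1) scale; where a segment is at 0 in some libraries they depend on the pseudocount and can differ in size and sign from the ratio of the means. Exact tests used SciPy 1.17.1. Lengths and sequences are GENCODE M21 (GRCm38), matched by gene identifier for 72 of 72 segments; positions are the authors' on mm39. M21 lists 108 Trav and 22 Trbv V genes, of which 50 and 20 were analysed here by name. Named segments were the 10 Trbv segments and 10 Trav families of highest mean usage, the leader of each library, the 3 smallest p per chain and direction, and Trgv6. Members, lists and tests were chosen with earlier results of these data known.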

Additional observations from a re-analysis of the deposited data

Results flagged for a closer look

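For 18 of 74 groups of 4 libraries examined within a genotype, the highest library lay so far from the other 3 that the gap passed Dixon's critical value for 4 values. The 74 groups covered named segments, Trav families and chain-level values such as the summed level, effective number and leading share. All 18 flagged groups were segments or families. Chance alone marks about 1 in 20 groups of evenly spread values, and values with 3 zeros pass by construction. In KO 3 these were Trbv5 (100.01), Trbv15 (44.2), Trav12d-3 (68.9) and the families Trav14 (114), Trav5 (98.7) and Trav13 (79.2). In KO 4 it was Trbv16 (43.4), in KO 1 Trav14d-3-dv8 (15.4), and in KO 2 Trav16n and with it the Trav16 family (389 each). In WT 4 they were Trbv16 (190.0), Trav3-1 (34.7), Trav16d-dv11 (92.2) and the Trav3 family (132). In WT 3 they were Trav16n (82.9) and the Trav13 family (63.8), in WT 1 the Trav17 family (66.0) and in WT 2 the Trav5 family (100.3). In 13 of these 18 the other 3 libraries were below 3 units of level.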

How the results depend on the processing

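The count of V segments past the threshold was 0 under every setting run: pseudocounts of 5 and 25, no filter, a mean of at least 50, TMM and quantile scaling, the replicate block, each library left out, and, added after seeing the data, Trav copies summed into families. The smallest adjusted p of a segment ranged from 0.614 to 0.926 over these, and that of Trbv14 did too. Replicate numbers did not pair the libraries (correlations 0.0162 to 0.0757), and with the replicate block 0 genes in all were called, against 38 without it, with Trbv14 at an adjusted p of 0.718. Directions turned for segments that were far from the threshold, and the cause was not tested. Trbv17 became 0.31 with a pseudocount of 25 and 0.22 with quantile scaling, and 0.72 without KO 1 or without KO 2; Trbv20 became 0.031, 0.076 and 0.34 under the same settings and 0.13 without WT 3. Leaving out 1 library also turned Trbv13-2 to 0.069 (KO 1 or KO 2), Trbv1 to -0.35 (KO 2) and -0.11 (KO 3), Trbv19 to -0.61 (WT 2) and Trav16d-dv11 to -0.12 (KO 1). At the other end, leaving out a library gave 1.83 for Trbv19, -2.0 for Trbv17, -2.42 for Trbv13-2, 2.21 for Trbv1, -1.94 for Trbv20 and 1.69 for Trav16d-dv11. Without the library of its highest level, a segment could fall under the mean of 10 and was then not fitted. This held for Trbv16 and Trav16d-dv11 without WT 4, Trav14d-3-dv8 without WT 2 and Trav9d-3 without WT 1. The ranges given for these segments leave that case out. No other named segment turned in the fits that kept it. Sizes moved with 1 library left out: Trbv5 from -4.61 to -2.39, Trbv16 from -2.84 to -1.02, Trbv12-1 from 1.45 to 3.19 and Trbv26 from 1.49 to 3.86. Among alpha segments, Trav16n moved from 3.65 to 6.08, Trav3-1 from 1.41 to 3.80 and Trav14d-3-dv8 from -4.41 to -2.72. The log2 difference in the Trbv sum was 0.41 to 1.53 and in the Trav sum 0.031 to 0.73 with a library left out. The difference in effective number was -2.35 to 0.53 for Trbv and -1.42 to 0.91 for Trav families, and that for Trbv was 0.84 with values under 1 fragment set to 0.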
